A study of Mus musculus with 2 samples.

Results

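The transcripts of 10 chemokine genes were followed in single dendritic cells (DC) of the mouse spleen: Ccl17, Ccl22, Ccl5, Ccl3, Ccl4, Ccl6, Ccl9, Cxcl9, Cxcl10 and Cxcl16. They were chosen by symbol, and all 10 were among the 31053 genes listed for both libraries. The study asked how type 1 and type 2 conventional DC (cDC1 and cDC2) of different origin compare in gene expression. The L-cDC library held tdTomato-positive cells and the M-cDC library held tdTomato-negative cells from spleens of naive mice, 7 to 9 weeks old and housed SPF, of the genotype Il7r-cre; Rosa26-lsl-tdTomato. All cells had first been enriched with beads against CD11c and then sorted by FACS. In this genotype Il7r drives the Cre recombinase, and tdTomato stays on in a cell once the cell, or any of its ancestors, has expressed Il7r-cre, so it records a history and not a present state. Each group was 1 library, and the labels do not say how many mice went into it. No difference between the groups could therefore be tested, no p-value is given, and every interval below covers counting error alone.

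Chemokines are small secreted proteins that guide leukocytes along gradients by binding receptors on the cells they attract. CCL17 and CCL22 bind CCR4 on regulatory and helper T cells, CCL5, CCL3 and CCL4 attract T cells, NK cells and monocytes, and mouse CCL6 and CCL9 bind CCR1 on myeloid cells. CXCL9 and CXCL10, which interferon induces, bind CXCR3 on activated T and NK cells, while CXCL16 is made as a membrane-anchored protein that binds CXCR6. DC that mature move CCR7 to their surface and travel to T cell zones, where such chemokines bring T cells to them. The data are transcript counts and say nothing of the proteins.

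In the GRCm38 annotation several of the genes are neighbours, all of them protein coding. Ccl22 (chr8:94745590-94751699, plus strand) and Ccl17 (chr8:94810453-94812036, plus strand) lie 58753 bp apart with Cx3cl1 between them. Ccl9 (chr11:83572919-83578636) and Ccl6 (chr11:83587882-83593087), both on the minus strand, lie 9245 bp apart, and Ccl3 (chr11:83647844-83649355, minus strand) and Ccl4 (chr11:83662584-83664683, plus strand) 13228 bp apart. Cxcl9 (chr5:92321347-92328079) and Cxcl10 (chr5:92346638-92348889) lie 18558 bp apart on the minus strand. Ccl5 (chr11:83525778-83530518) and Cxcl16 (chr11:70453983-70459984) are also on the minus strand. Ccl6, Cxcl10 and Cxcl16 overlap genes of the opposite strand (E230016K23Rik, Art3 and Zmynd15). RefSeq promoters (GRCm38.p6) were at hand for 7 of the 10 genes. The stretches printed belong to the pairs of neighbours whose levels are compared most closely, Ccl17 with Ccl22 and Cxcl9 with Cxcl10. Each is 160 bases long, runs 5′ to 3′ on the gene's own strand from 250 to 91 bases before the RefSeq start site, and covers chr8:94810203-94810362 (plus), chr8:94745434-94745593 (plus), chr5:92328170-92328329 (minus) and chr5:92348980-92349139 (minus) in the order printed. Capitals mark letter matches, on either strand, to a kB-type motif (GGG and CC with any 5 bases between), an ISRE-type motif (GAAA and GAAA with any 2 between) or a GAS-type motif (TTC and GAA with any 3 between), forms that NF-kB, interferon regulatory factors and STAT factors are known to bind.
Ccl17: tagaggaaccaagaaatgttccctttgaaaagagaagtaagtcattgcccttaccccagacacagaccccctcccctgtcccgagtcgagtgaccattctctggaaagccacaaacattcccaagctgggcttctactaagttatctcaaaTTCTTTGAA
Ccl22: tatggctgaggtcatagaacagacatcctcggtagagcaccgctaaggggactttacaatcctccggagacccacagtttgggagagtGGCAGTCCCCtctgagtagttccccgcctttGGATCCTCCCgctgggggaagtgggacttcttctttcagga
Cxcl9: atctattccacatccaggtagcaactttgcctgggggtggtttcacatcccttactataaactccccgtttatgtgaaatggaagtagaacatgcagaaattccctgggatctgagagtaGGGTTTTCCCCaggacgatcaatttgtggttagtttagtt
Cxcl10: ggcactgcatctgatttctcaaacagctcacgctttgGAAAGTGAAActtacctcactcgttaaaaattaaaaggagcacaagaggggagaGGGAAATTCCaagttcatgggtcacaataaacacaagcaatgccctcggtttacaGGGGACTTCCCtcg
In the whole window of 300 bases, Ccl17 had 1 GAS-type match, starting at -99, and Ccl22 had 2 kB-type matches, at -162 and -131. Cxcl9 had 2 overlapping kB-type matches, at -130 and -129. Cxcl10 had an ISRE-type match at -213 and 3 kB-type matches, at -159, -104 and -103, the last 2 overlapping. Of the other 3 promoters, that of Ccl9 had 1 kB-type match and those of Ccl3 and Ccl6 had no match. The kB-type letters are common, at 50.8% of 32851 promoters of that length, against 3.44% for the ISRE-type and 8.30% for the GAS-type letters. A match describes the sequence and no binding was measured.

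After filtering, 3943 cells remained in L-cDC (median depth 8573 UMIs) and 5600 in M-cDC (median depth 7663.5 UMIs), a UMI being the molecular tag that makes each transcript count once. Of the kept barcodes 4 occurred in both libraries. Cells were clustered without the chemokine genes, so the classes were not built from the genes described. The largest class was mature Ccr7+ DC-like (9 clusters, 2769 L-cDC and 3229 M-cDC cells), with Ccr7 between 477 and 1840 CPM (the gene's UMIs per 1000000 UMIs of the class) in its clusters. The others used below were cDC1-like (204 and 715 cells), cDC2-like (134 and 937), pDC-like (223 and 137; led by Cd209d, Cd209e and Apod, with Siglech) and NK-like (201 cells and 1 cell; led by Gzmc, Gzma and Nkg7). Their own marker lists summed to 24848 and 25086 CPM in mature cells (33 of 33 markers at 10 CPM or more), 7580 and 8121 CPM in cDC1-like cells and 2755 and 2554 CPM in cDC2-like cells, in L-cDC and M-cDC. In the pDC-like cells the pDC markers summed to 2332 and 1738 CPM, below the cDC2 markers at 3201 and 3145 CPM, so that name is less certain. The cDC2-like name has a like limit, since the 33 mature markers summed to 3582 and 3219 CPM there, above the cDC2 markers. Cluster 16 (72 and 211 cells) had markers of monocytes and cDC2, was led by Mmp12 and Mgl2 with Lyz2 at 4552 CPM, and stayed unnamed. Cluster 13 (174 and 115 cells; led by Nid1 and Htra1) also stayed unnamed, with Ccr7 at 1351 CPM. The mature markers summed to 26656.5 and 26550 CPM in it, with 32 of 33 at 10 CPM or more, about as in the mature class. The sort was for conventional DC, so the NK-like cells, nearly all of them in L-cDC, are outside the labelled cell type. In L-cDC they also had 7 of 10 T cell markers at 10 CPM or more, so the name does not exclude T cells among them. Cluster 2 of the mature class, led by Mucl1, Calm4 and Nrp2, held 344 L-cDC cells and no M-cDC cell.

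The chemokines fell into groups by the class that held their transcripts. Ccl17, Ccl22, Ccl5 and Cxcl16 came mainly from mature cells in both libraries, Cxcl9 from cDC1-like cells, and Ccl6 and Ccl9 had their highest levels in cluster 16. Cxcl10 was rare and had its highest level in cluster 16. For Ccl3 and Ccl4 the libraries differed. In L-cDC most of their UMIs were in NK-like cells, which goes against describing them there as products of spleen DC. In M-cDC mature cells held 67.4% of the Ccl3 and 79.6% of the Ccl4 UMIs, and the 10 richest cells of the library held 69.5% and 89.5%.

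**Figure D1:**
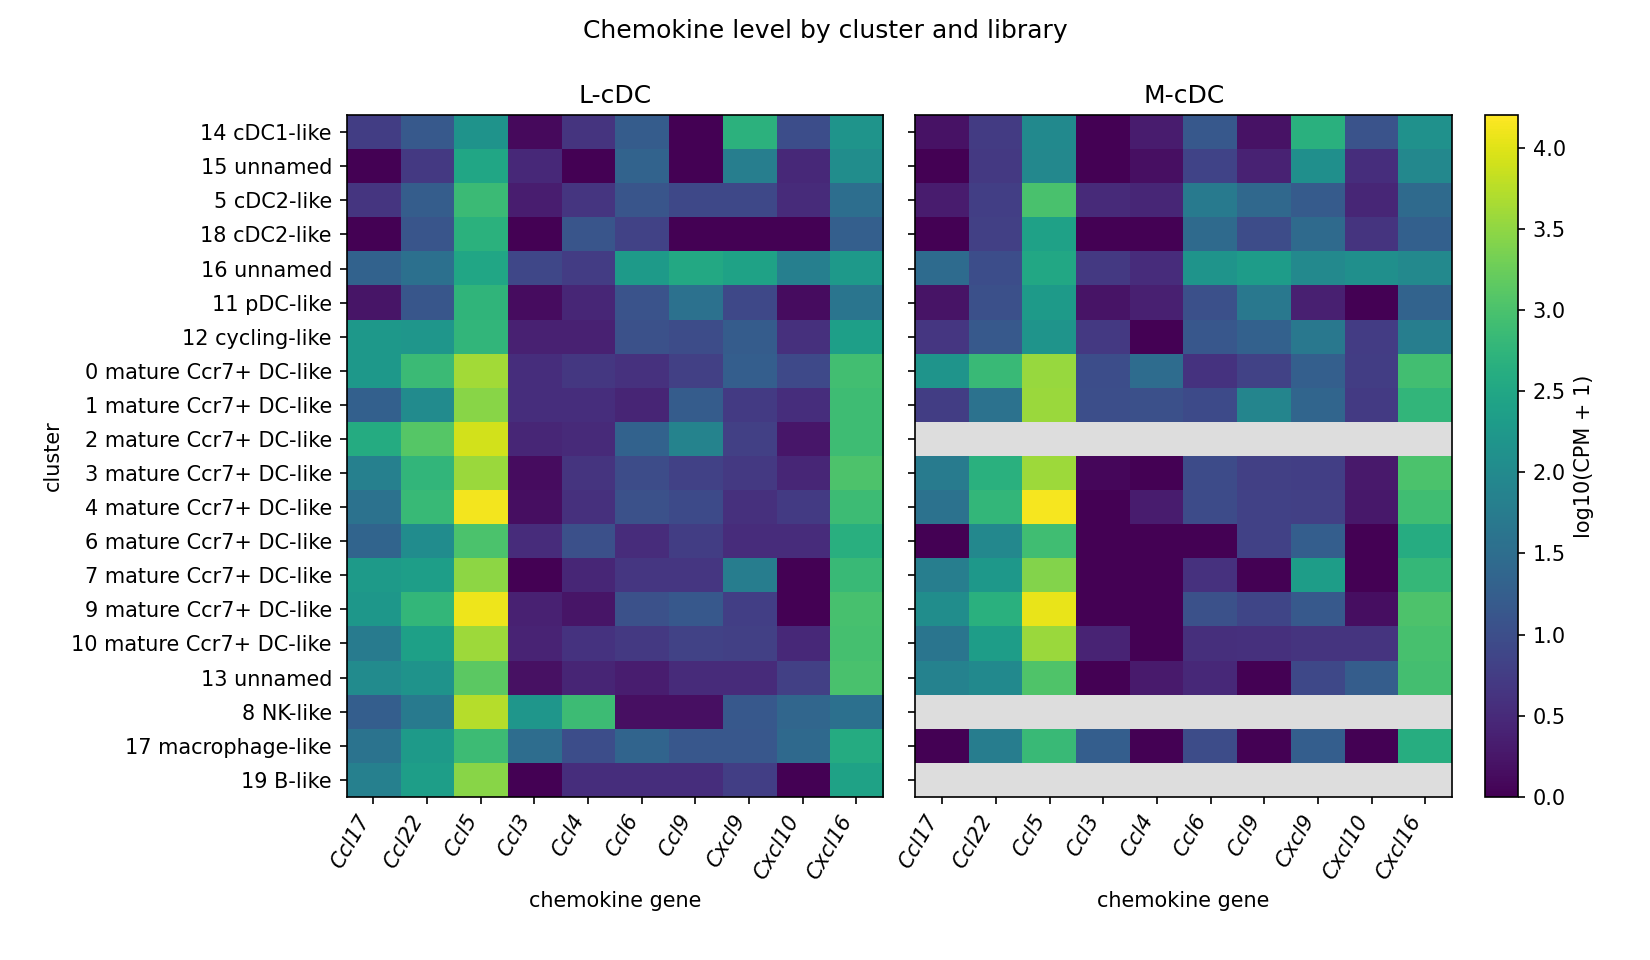
Level of the 10 chemokine genes (columns) in each of 20 clusters (rows), L-cDC on the left and M-cDC on the right; colour is log10(CPM + 1) and grey marks a cluster with fewer than 10 cells in that library. Ccl5 is brightest in mature clusters 4 and 9, at 13386 and 12369 CPM in L-cDC and 14066 and 11631 CPM in M-cDC.

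**Figure D2:**
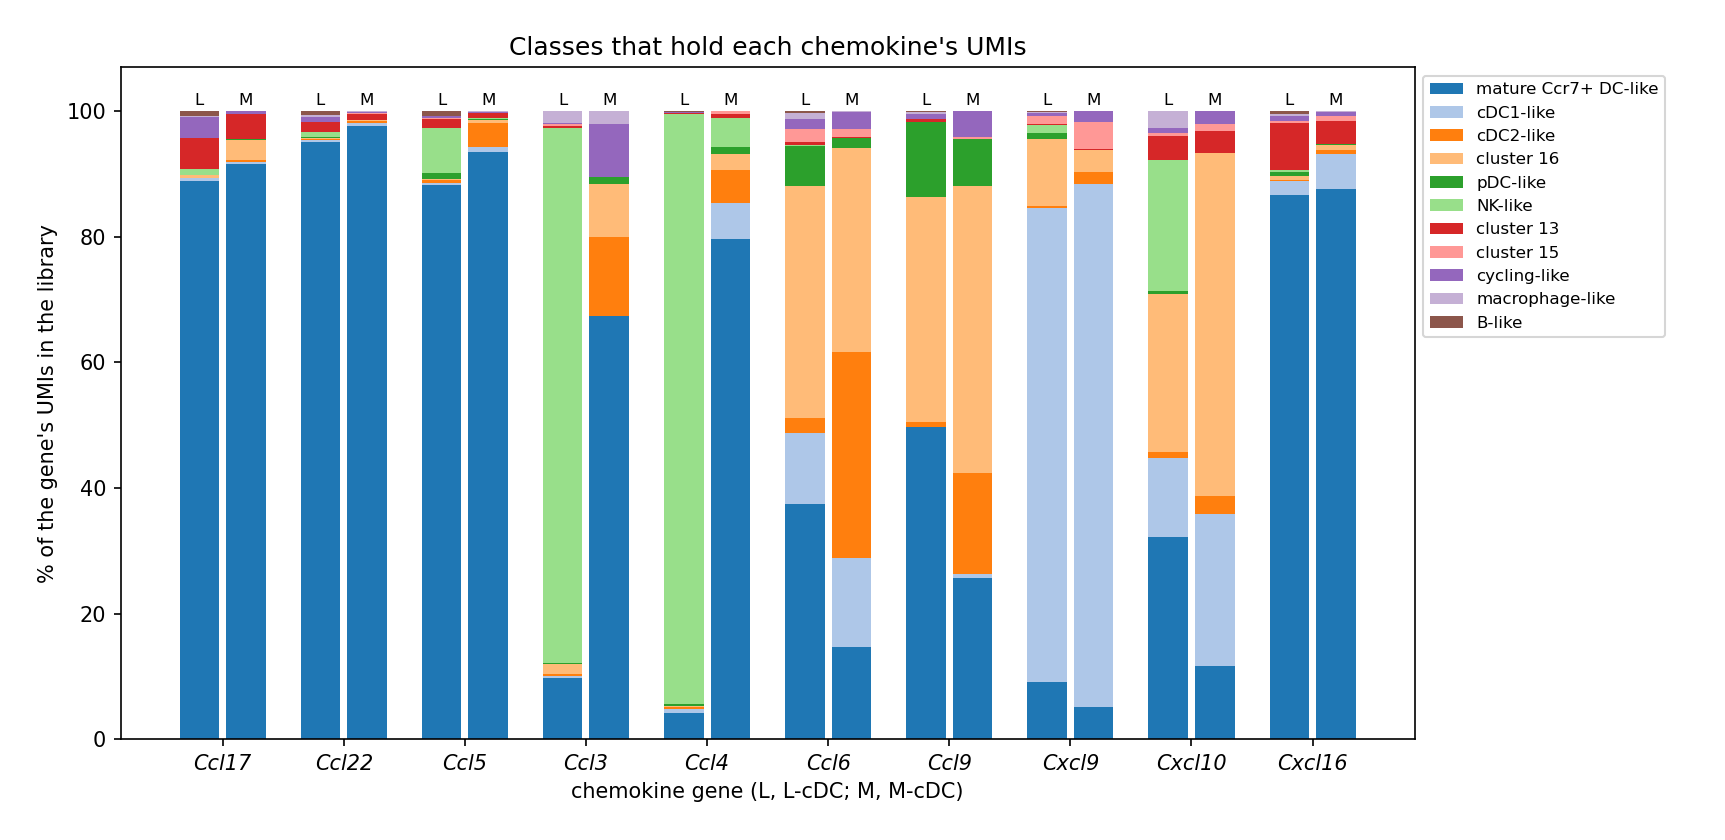
Share of each gene's UMIs held by each cell class, in percent of all its UMIs in the library, with L-cDC (L) left of M-cDC (M). Ccl22 lay in mature cells for 95.1% of its UMIs in L-cDC and 97.6% in M-cDC, whereas 93.9% of Ccl4 UMIs in L-cDC were in NK-like cells.

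Ccl17 and Ccl22, the CCR4 ligands, were transcripts of mature cells. Of the Ccl17 UMIs, 3715 in L-cDC and 1748 in M-cDC, mature Ccr7+ DC-like cells held 88.9% and 91.5%. Of the Ccl22 UMIs, 14905 in L-cDC and 10428 in M-cDC, they held 95.1% and 97.6%. A Ccl17 UMI was found in 27.3% (exact Clopper-Pearson 95% interval 25.7 to 29.0) of mature L-cDC cells and 17.96% (16.7 to 19.3) of mature M-cDC cells. The pDC-like cells, taken as a class of low share, gave 0.897% and 0.730% at median depths of 12027 and 10376 UMIs, against 7984 and 6777 UMIs in mature cells. They are not a clean negative, since mature markers summed to 4223 and 2983 CPM in them. In M-cDC the cDC2-like share was lower, at 0.640%. A Ccl22 UMI was found in 67.6% (65.8 to 69.3) of mature L-cDC and 63.9% (62.2 to 65.5) of mature M-cDC cells, and in 11.2% and 5.84% of pDC-like cells. The cDC1-like shares for Ccl22, 13.7% and 4.90%, and the cDC2-like shares, 11.9% and 3.52%, were near those of the pDC-like cells. The share thus separated mature cells from cDC1-like, cDC2-like and pDC-like cells for both genes, with Ccl22 found more widely. It did not set them apart from every class. In L-cDC, cluster 13, whose mature markers summed to 26656.5 CPM, had a Ccl17 UMI in 37.4% and a Ccl22 UMI in 54.6% of cells. Ccl22 was also in 45.3% of the B-like and 34.9% of the cycling-like cells of L-cDC. The mature markers summed to 7293 and 7233 CPM in these cells, above the B cell and cycling lists at 5802 and 5957 CPM. The part of mature transcripts in these shares was not tested. With every cell thinned to 3000 UMIs, the mature shares were 16.1% in L-cDC and 10.7% in M-cDC for Ccl17, and 50.3% and 49.2% for Ccl22.

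The richest cell held 175 of the Ccl17 UMIs in L-cDC, 4.71% of the library's total, and 78 in M-cDC, 4.46%. For Ccl22 these were 238 UMIs (1.60%) in L-cDC and 104 UMIs (1.0%) in M-cDC. In L-cDC both richest cells were in cluster 2, and they were different cells: the first had 175 Ccl17 but 14 Ccl22 UMIs, the second 99 Ccl17 and 238 Ccl22 UMIs. In M-cDC both were in cluster 0. To reach 50% of its UMIs, Ccl17 needed 48 cells in L-cDC and 66 in M-cDC, and Ccl22 needed 164 and 289. Among thinned mature cells with a Ccl17 UMI, Ccl22 was found in 66.9% (L-cDC) and 72.3% (M-cDC), and among those without Ccl17 in 47.1% and 46.5%. The genes were thus often but not always in the same cells. The cycling-like cells of L-cDC had Ccl17 at 173 CPM, with 76.4% of it in 1 of 43 cells.

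In mature cells Ccl17 was at 144 CPM (139 to 149, exact Poisson 95% interval) in L-cDC against 69.6 CPM (66.2 to 73.1) in M-cDC, a ratio of 2.07 (1.95 to 2.20). Ccl22 was at 618 CPM in L-cDC against 443 CPM in M-cDC, a ratio of 1.40 (1.36 to 1.43). A gene is called past 1.5-fold here when the ratio is at least 1.5 either way, the higher library has at least 20 CPM, both together have at least 50 UMIs, and the interval of the ratio leaves out 1. Of the 10 chemokines 4 had enough UMIs for this in mature cells and 1, Ccl17, passed, being higher in L-cDC. Over all genes with enough UMIs 1.53% passed in either direction, and the median log2 ratio was -0.04, beside 0.23 for the 4 chemokines. The Ccl17 value rests on cluster 2: without it, the log2 ratio in mature cells was 0.50 instead of 1.05 and no chemokine passed, and that of Ccl22 was 0.18 instead of 0.48. Over all alternatives the Ccl17 value ran between 0.50 and 1.63 and that of Ccl22 between 0.18 and 0.89.

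Levels differed widely among the mature clusters. Ccl17 was highest in cluster 2, at 378 CPM with a UMI in 48.5% of its cells, all from L-cDC. Next came clusters 7, 0 and 9, at 193, 174 and 166 CPM in L-cDC and 62.6, 148 and 116 CPM in M-cDC. In L-cDC the intervals of these 3 clusters overlapped. The lowest levels among clusters with a UMI in both libraries were 18.4 CPM in L-cDC against 4.83 CPM in M-cDC, in cluster 1. Cluster 6, of low depth (median 1975 and 1840 UMIs), had 21.6 CPM (9 UMIs) in L-cDC and no UMI in M-cDC. With the M-cDC count set to a floor of 3 the ratio was 1.29 (0.32 to 7.39), so that level cannot be ranked. Ccl22 was likewise highest in cluster 2 of L-cDC, at 1214 CPM with a UMI in 78.5% of cells, and reached 727 CPM in L-cDC against 710 CPM in M-cDC in cluster 0. Within the mature clusters held by both libraries and with enough UMIs, Ccl17 passed 1.5-fold only in cluster 7, at 3.08-fold (1.92 to 5.18), where 1 cell held 35.8% of the L-cDC UMIs and 8.10% of all genes passed. Ccl22 passed only in cluster 1, at 107.1 CPM in L-cDC against 36.8 CPM in M-cDC (2.91-fold, 2.13 to 4.02), where 13.9% of all genes passed. Unnamed cluster 13 had Ccl17 at 104 and Ccl22 at 142 CPM in L-cDC and at 71.7 and 97.9 CPM in M-cDC, below the mature class for Ccl22 in both libraries, and none of its 4 measurable chemokines passed (3.65% of genes did; median log2 ratio 0.42 for the 4, -0.03 for all).

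**Figure D3:**
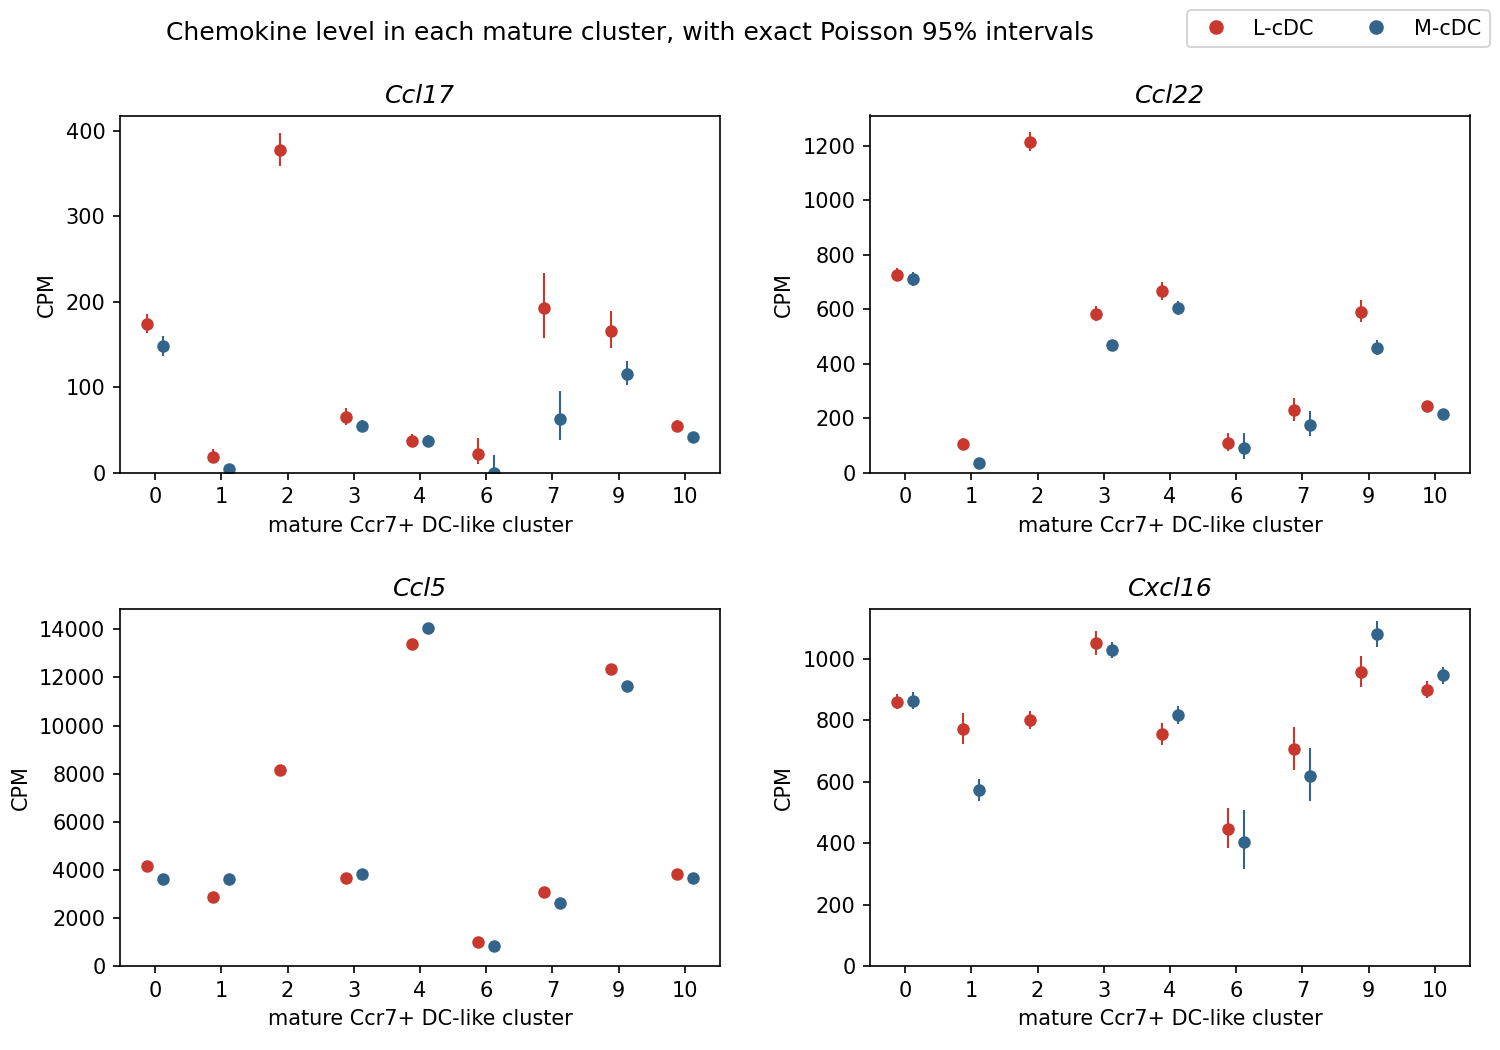
CPM of Ccl17, Ccl22, Ccl5 and Cxcl16 in each mature Ccr7+ DC-like cluster, L-cDC (red) left of M-cDC (blue), with exact Poisson 95% intervals as bars; cluster 2 has no M-cDC cell. Cluster 2 stands highest for Ccl17 (378 CPM) and Ccl22 (1214 CPM), clusters 4 and 9 for Ccl5.

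Ccl5, also called RANTES, which attracts T cells and monocytes, was found in nearly every mature cell. It had 156402 UMIs in L-cDC and 149178 in M-cDC, of which mature cells held 88.3% and 93.6%. A UMI was present in 96.0% of mature L-cDC cells and 96.5% of mature M-cDC cells, at 6023 and 6073 CPM, a ratio of 0.99 that was close to 1. Clusters 4 and 9 had 13386 and 12369 CPM in L-cDC and 14066 and 11631 CPM in M-cDC. Cluster 2 had 8133 CPM in L-cDC, and the other mature clusters lay between 1012 and 4164 CPM in L-cDC and between 827 and 3812 CPM in M-cDC. The richest cell of each library was in cluster 4, with 1190 UMIs in L-cDC (0.761% of the library's Ccl5) and 701 in M-cDC (0.470%), so that no single cell carried the total.

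In L-cDC the next highest Ccl5 level was that of the NK-like cells, at 5389 CPM with a UMI in 96.0% of cells. These held 7.03% of the L-cDC transcripts. The cDC2-like cells had 696 CPM in L-cDC against 892 CPM in M-cDC (ratio 0.78, 0.72 to 0.84), with a UMI in 84.3% and 83.6% of cells, and the cDC1-like cells had 144 and 99.0 CPM (1.46, 1.30 to 1.62). A Ccl5 UMI was also found in 75.0% and 56.6% of cDC1-like and 78.0% and 65.0% of pDC-like cells. At full depth the share thus hardly separated these classes, but median depth was 16085 and 14049 UMIs in cDC1-like and 7642.5 and 6729 UMIs in cDC2-like cells. After thinning the shares were 73.9% and 71.25% in cDC2-like and 26.5% and 18.7% in cDC1-like cells. The level in cDC2-like cells was likewise above that in cDC1-like cells in both libraries. In cDC1-like cells 1 cell held 33.0% of the L-cDC UMIs and 17.3% of those in M-cDC. None of the 3 chemokines with enough UMIs there passed 1.5-fold, where 0.974% of all genes did; the median log2 ratio was 0.20 for the 3 and -0.07 for all. Without the richest cells the log2 ratio of Ccl5 in cDC1-like cells was 0.24 instead of 0.54, and finer clustering turned it to -0.05. In pDC-like cells Ccl5 was at 569 CPM in L-cDC against 196 CPM in M-cDC (2.91-fold, 2.56 to 3.31), but 27.0% of the L-cDC UMIs were in 1 cell and the thinned shares of cells were 39.1% and 40.4%. Both Ccl5 and Cxcl16 passed in pDC-like cells among 3 measurable chemokines, against 10.0% of all genes, with a median log2 ratio of 0.99 for the 3 and -0.08 for all. The markers of mature cells, the class richest in Ccl5, summed to 4223 CPM in pDC-like cells of L-cDC and 2983 CPM in those of M-cDC, with none at 0, and their part in these values was not tested. Ccl5 stayed higher in L-cDC there under each alternative, but with a log2 ratio as low as 0.29 when cells of over 5% mitochondrial UMIs were left out.

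Ccl3 and Ccl4, also known as MIP-1 alpha and MIP-1 beta, were rare and gathered in few cells. In L-cDC a Ccl3 UMI was found in 2.36% of cells and a Ccl4 UMI in 4.06%, against 0.696% and 0.536% in M-cDC. The NK-like cells of L-cDC held 85.2% of its 378 Ccl3 UMIs and 93.9% of its 1666 Ccl4 UMIs. Within them Ccl3 was at 158 CPM (141 to 176) with a UMI in 23.4% of cells, and Ccl4 at 767 CPM (729 to 806) with a UMI in 38.3%. After thinning these shares were 13.4% and 23.4%. All 14 NK markers were above 10 CPM in these cells, summing to 7406 CPM, against 71.4 CPM in the mature cells of the same library. The T cell markers summed to 746 CPM in them against 3.97 CPM in the mature cells, and all 14 cycling markers reached 10 CPM. Which of these lymphocytes hold the Ccl3 and Ccl4 was not tested. Among the cDC1-like, cDC2-like, mature and pDC-like cells of L-cDC, neither gene exceeded 4.86 CPM. Ccl3 was at 6.72 CPM (6 UMIs) in cluster 16 and at 30.3 CPM (7 UMIs) in the macrophage-like cells of L-cDC. In the latter Ccl4 was at 8.66 CPM (2 UMIs). In these macrophage-like cells the macrophage markers summed to 2679 CPM, below the mature markers at 11564 CPM and monocyte markers at 10612 CPM. That name is thus less certain. In thinned NK-like cells Ccl4 was found in 74.1% of those with Ccl3 and in 15.5% of those without.

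The richest cell decided much of both totals. In L-cDC a single NK-like cell of 17635 UMIs held 86 Ccl3 UMIs (22.8% of the library's) and 414 Ccl4 UMIs (24.8%), together with 304 UMIs of Xcl1, the chemokine that attracts XCR1-bearing cDC1, and 32 of Nkg7. In M-cDC the richest cell for both genes was a mature cell of cluster 0 with 12302 UMIs, which held 29 of 95 Ccl3 UMIs (30.5%) and 130 of 191 Ccl4 UMIs (68.1%). It had 20 of the 33 mature markers and 0 of the 14 NK markers, with no Nkg7 or Xcl1 UMI but 95 of Ccr7, 59 of Fscn1, 47 of Ccl22, 72 of Il12b and 10 of Tnf. The levels of Ccl4 in cluster 0, 3.74 CPM in L-cDC against 29.5 CPM in M-cDC, therefore reflect 1 M-cDC cell that held 98.5% of the M-cDC UMIs. The 1 M-cDC cell in the NK-like cluster had 9 Ccl4 UMIs and no Ccl3 UMI.

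**Figure D4:**
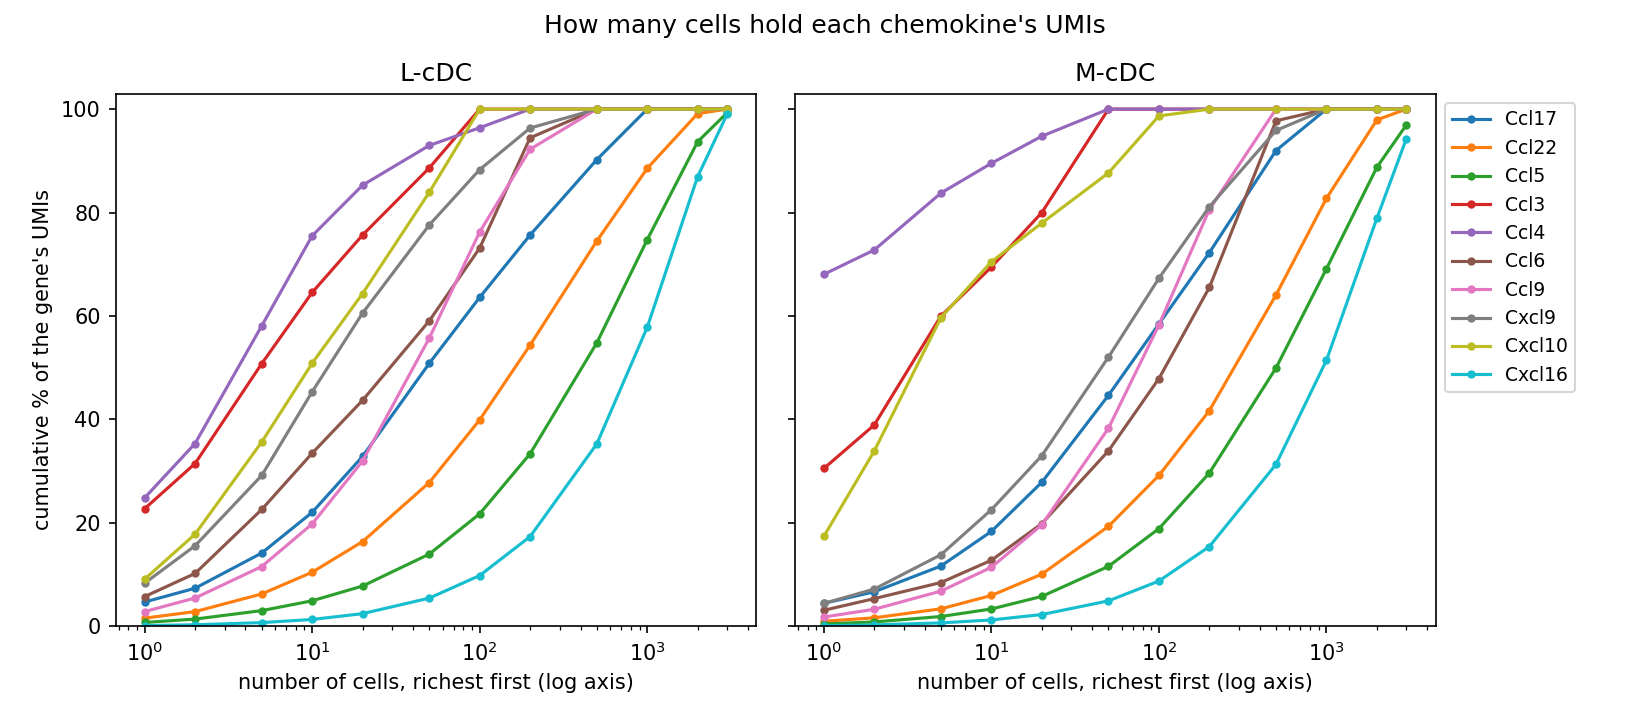
Cumulative percent of each gene's UMIs against the number of cells, richest first (log axis), in L-cDC on the left and M-cDC on the right. Ccl4 starts highest, with 24.8% of its UMIs in 1 cell in L-cDC and 68.1% in M-cDC, and Cxcl16 lowest, at 0.167% and 0.147%.

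Ccl6 and Ccl9, whose proteins bind CCR1, had their highest levels in unnamed cluster 16. There Ccl6 was at 194 CPM (166 to 225) in L-cDC against 149 CPM (132 to 167) in M-cDC, with a UMI in 38.9% and 44.1% of cells. Ccl9 was at 337 CPM (300 to 377) in L-cDC against 211 CPM (191 to 232) in M-cDC, with a UMI in 61.1% and 54.5%. After thinning the shares were 25.0% and 24.4% for Ccl6 and 43.1% and 38.3% for Ccl9. NK-like cells of L-cDC gave 0.498% for either gene, at a median of 8138 UMIs against 12201 UMIs in cluster 16. Of the Ccl6 UMIs, 469 in L-cDC and 931 in M-cDC, cluster 16 held 36.9% and 32.5%, mature cells 37.5% and 14.7%, cDC2-like cells 2.35% and 32.9%, and cDC1-like cells 11.3% and 14.1%. No class thus held most of the Ccl6. Of the Ccl9 UMIs, 838 in L-cDC and 937 in M-cDC, it held 35.9% and 45.8%. For Ccl9 the rest was spread: mature cells, at 18.2 CPM in L-cDC against 10.49 CPM in M-cDC, held 49.8% and 25.7% of the Ccl9 UMIs, and pDC-like cells had 35.2 and 47.5 CPM. Within the mature class, Ccl9 was highest in cluster 2 of L-cDC, at 75.5 CPM, and in cluster 1 of M-cDC, at 82.0 CPM against 15.9 CPM in L-cDC cluster 1. The cDC1-like cells had Ccl6 at 15.8 and 13.1 CPM but nearly lacked Ccl9, with 0 of 204 cells in L-cDC, for which a floor of 3 counts allows a share of cells with a UMI of up to 1.47%, and 0.699% of cells in M-cDC. In cluster 16 Ccl9 was found more often where Ccl6 was: after thinning, it was present among cells with Ccl6 in 55.6% (L-cDC) and 54.9% (M-cDC), and among cells without Ccl6 in 38.9% and 32.9%. No single cell dominated, the richest holding 5.76% of the Ccl6 UMIs in L-cDC and 3.11% in M-cDC, and 2.86% and 1.81% for Ccl9.

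Between the libraries the direction of Ccl6 and Ccl9 depended on which cells were counted together. In cluster 16 Ccl9 was 1.60-fold (1.38 to 1.86) and Ccl6 1.30-fold (1.07 to 1.58) higher in L-cDC. In cDC2-like cells Ccl6 had 10.7 CPM (11 UMIs) in L-cDC against 46.8 CPM (306 UMIs) in M-cDC, and Ccl9 5.83 CPM (6 UMIs) and 23.0 CPM (150 UMIs). Both passed 1.5-fold as lower in L-cDC there, 2 of 4 measurable chemokines, against 5.61% of all genes in either direction and 2.38% lower in L-cDC; the median log2 ratio was -1.17 for the 4 and -0.01 for all genes. With cDC2-like cells and cluster 16 joined (206 and 1148 cells), Ccl6 was at 95.8 CPM in L-cDC against 71.1 CPM in M-cDC and Ccl9 at 160 and 67.6 CPM, both higher in L-cDC. A coarser clustering and a limit of 5% mitochondrial UMIs also turned both directions. When each library was clustered alone, both genes turned in the matching cluster, Ccl6 to a log2 ratio of -1.81 and Ccl9 to -1.41.

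Cxcl9, which attracts CXCR3-bearing T and NK cells, was a transcript of cDC1-like cells. Of its UMIs, 2214 in L-cDC and 5599 in M-cDC, these cells held 75.5% and 83.2%. A UMI was found in 70.1% (63.3 to 76.3) of cDC1-like cells in L-cDC and 64.1% (60.4 to 67.6) in M-cDC, and in 0.897% and 1.46% of pDC-like cells, at median depths of 16085 and 14049 UMIs in cDC1-like cells. The level was 500 CPM (476 to 524) in L-cDC against 465 CPM (452 to 479) in M-cDC. The ratio of 1.07 lay near 1, and its sign turned, to a log2 ratio of -0.07 after thinning and -0.05 with at least 200 genes per barcode. The thinned shares of cells were 41.2% in L-cDC and 41.0% in M-cDC. The richest cell, of the cDC1-like class in each library, held 185 UMIs in L-cDC (8.36%) and 249 in M-cDC (4.45%), and 13 cells in L-cDC and 46 in M-cDC made up 50% of the UMIs. Many cDC1-like cells thus had no Cxcl9 UMI while single cells were very rich in it. Interferon response genes, a list of 20, summed to 878 CPM in cDC1-like cells with Cxcl9 and 748 CPM in those without in L-cDC, and to 917 and 707 CPM in M-cDC. Immediate early genes, another list of 20, were higher in the cells with Cxcl9 as well, at 2056 and 1876 CPM in L-cDC and 2187 and 1754 CPM in M-cDC. Among the mature clusters Cxcl9 was highest in cluster 7, at 58.2 CPM in L-cDC against 217 CPM in M-cDC, where it passed 1.5-fold as 3.74-fold (2.44 to 5.85) lower in L-cDC. In that cluster 1 M-cDC cell held 72.6% of the 73 M-cDC UMIs. Cluster 15, which had S-phase genes together with Xcr1, carried Cxcl9 at 61.1 CPM in L-cDC against 124 CPM in M-cDC.

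Cluster 16 also had Cxcl9 and was the class with the highest level of Cxcl10, the other CXCR3 ligand. It held 25.2% of the Cxcl10 UMIs in L-cDC and 54.6% in M-cDC, and mature cells, at 3.23 and 2.31 CPM, held 32.2% and 11.7%. Cxcl9 was there at 265 CPM in L-cDC against 95.3 CPM in M-cDC (2.79-fold, 2.30 to 3.39), in 18.1% and 14.7% of cells, with 39.2% and 28.9% of the UMIs in the richest cell. Cxcl10 had 230 UMIs in all L-cDC cells and 454 in M-cDC, in 2.21% and 1.89% of cells. In cluster 16 it was at 65.0 CPM (49.3 to 84.0) in L-cDC against 122 CPM (107.1 to 138) in M-cDC, 1.87-fold (1.40 to 2.54) lower in L-cDC. These UMIs were in 6 L-cDC cells and 17 M-cDC cells, and the richest held 36.2% and 31.9%. These richest cells had 0 and 1 Lyz2 UMIs, unlike the cluster as a whole, and carried 13 and 18 of the 33 mature markers and 4 and 3 of the 13 monocyte markers. The M-cDC one had 15 Ccr7, 16 Fscn1 and 43 Ccl5 UMIs. In the 6 and 17 cells with Cxcl10 the interferon response list summed to 5021 and 3907 CPM, and in the cells of the cluster without Cxcl10 to 966 and 948 CPM. In M-cDC the thinned cells of cluster 16 with Cxcl9 had Cxcl10 in 43.8% of cases, 7 cells, and those without in 3.11%. Over the whole library the richest Cxcl10 cell held 9.13% in L-cDC and 17.4% in M-cDC, and 10 cells and 4 cells made up 50% of the UMIs. Besides cluster 16, NK-like cells of L-cDC held 20.9% of Cxcl10 at 23.5 CPM, and cDC1-like cells 12.6% in L-cDC and 24.2% in M-cDC, at 8.67 and 10.99 CPM in 3.92% and 1.96% of cells.

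Of the 7 chemokines with enough UMIs in cluster 16, 3 passed 1.5-fold as higher in L-cDC (Ccl9, Cxcl9 and Cxcl16) and 1 as lower (Cxcl10), against 12.1% of all genes in either direction. The median log2 ratio was 0.38 for the 7 chemokines and -0.04 for all genes. These values moved widely: over all alternatives, which changed filters, doublet removal, clustering, depth and scaling, the log2 ratio of Cxcl9 ran between 0.26 and 4.02, that of Cxcl10 between -5.44 and -0.01, and that of Cxcl16 between -0.77 and 1.23. The whole list of 13 monocyte markers summed to 5699 CPM (3 markers at 0) in L-cDC against 6299 CPM (2 at 0) in M-cDC in cluster 16, and in cDC2-like cells to 1053 and 938 CPM. The 33 markers of mature cells, whose class is rich in Cxcl16, summed to 3268 CPM in cluster 16 of L-cDC and 2184 CPM in that of M-cDC, with none at 0. Of 20 immediate early genes, which handling and stimulation induce quickly, 16 had enough UMIs in cluster 16, of which 5 passed as higher in L-cDC and 0 as lower, with a median log2 ratio of 0.42. The part of these lists in the chemokine values was not tested.

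Cxcl16, the membrane-anchored CXCR6 ligand, was spread over the most cells among the 10, counted by how many cells made up 50% of the UMIs. A UMI was found in 81.7% of all L-cDC and 71.0% of all M-cDC cells, and in 70.7% and 59.0% after thinning. Of its UMIs, 22748 in L-cDC and 23765 in M-cDC, the richest cell held 38 (0.167%) and 35 (0.147%). For 50% of the UMIs, 811 L-cDC and 959 M-cDC cells were needed. Mature cells held 86.7% and 87.7%, at 860 CPM (848 to 872) in L-cDC against 906 CPM (894 to 919) in M-cDC, with a UMI in 94.4% and 93.8% of cells and a ratio of 0.95 (0.93 to 0.97). Among the mature clusters it ranged from 446 to 1050 CPM in L-cDC and from 402 to 1079 CPM in M-cDC, a spread of 2.35-fold and 2.68-fold, where Ccl5 spread over 13.2-fold and 17.01-fold. Cluster 13 had a similar level, at 989 CPM in L-cDC against 887 CPM in M-cDC. It was lower in cDC1-like cells, at 150 and 131 CPM, in cluster 16, at 187 and 94.8 CPM, and low in cDC2-like cells, at 29.2 and 25.6 CPM. The NK-like cells of L-cDC, outside the DC classes, had a UMI in 19.9%, at 34.8 CPM, and the cDC2-like shares of 15.7% and 12.5% were below that. In pDC-like cells a UMI was found in 26.9% in L-cDC and 12.4% in M-cDC, at 41.6 and 21.02 CPM. Their ratio of 1.98 (1.32 to 3.04) rests on 117 and 31 UMIs.

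**Figure D5:**
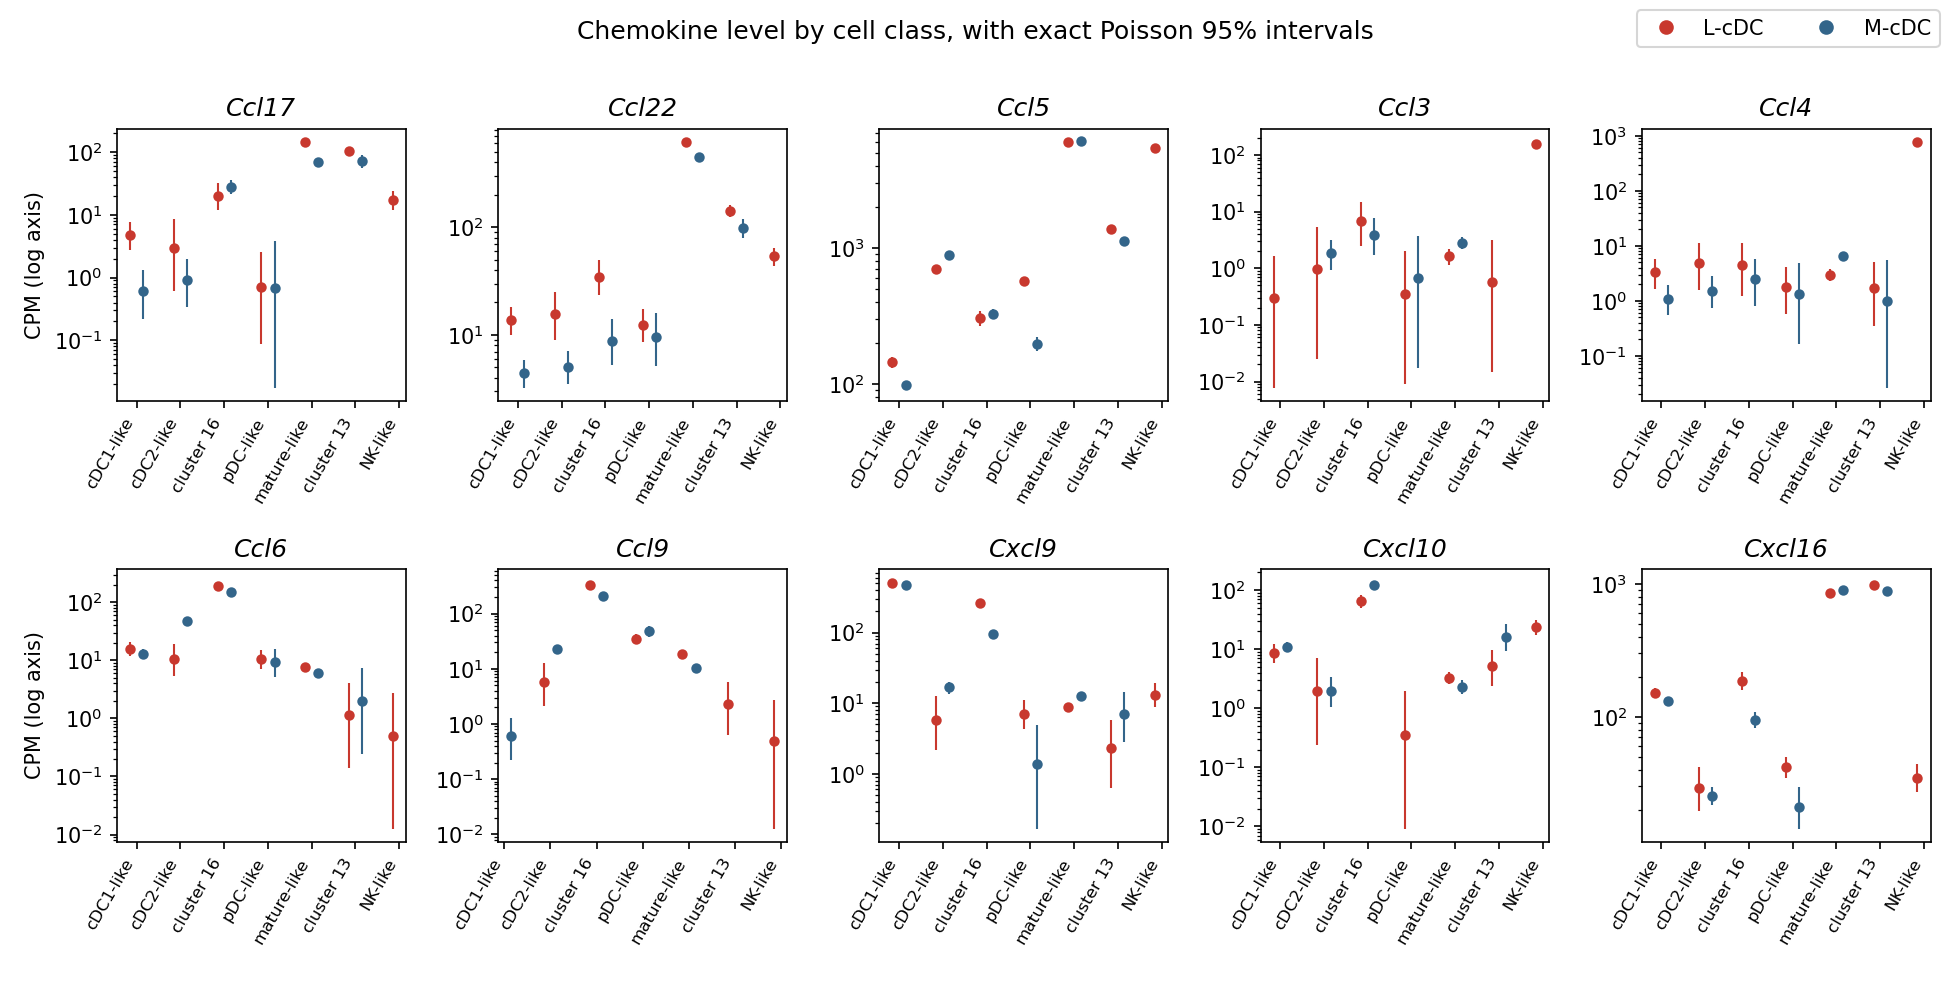
CPM of each chemokine gene by cell class on a log axis, L-cDC (red) left of M-cDC (blue), with exact Poisson 95% intervals as bars. Points at 0 UMIs and the NK-like class of M-cDC, which had 1 cell, are not drawn. Cxcl9 peaks in cDC1-like cells (500 and 465 CPM), and Ccl6 and Ccl9 in cluster 16.

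Across 32 points, each a cluster in 1 library with at least 50 cells, the genes most like each chemokine were ranked by Pearson's r of log2(CPM + 1), over 7940 genes. The points share libraries and depth, so r is a description. Ccl17 was most like Cstb (r = 0.87), and Ccl22 was most like D17Wsu92e (0.95) and Sqstm1 (0.93). The nearest gene to Ccl5 was Rhoc (0.90), followed by H2-K1 (0.88). For Cxcl16 it was Ube2l6 (0.96), with Il15, a cytokine for NK and T cells, at 0.94. Cxcl9 was nearest to Aldh3b1 (0.85) and Naaa (0.83), Ccl6 to Lpl (0.81) and Mmp12 (0.77), Ccl9 to Hr (0.79), and Cxcl10 to Fcgr3 (0.76). Ccl3 and Ccl4 both had Arl4d first (0.86 and 0.83), and Ccl4 had the NK receptor gene Klra8 next (0.81). Between members, r was 0.86 for Ccl17 with Ccl22, 0.84 for Ccl3 with Ccl4, 0.66 for Ccl6 with Ccl9 and 0.41 for Cxcl9 with Cxcl10, so that of these neighbouring pairs the last was the least alike. The value for Ccl3 with Ccl4 has a limit. Outside the NK-like point of L-cDC, no point exceeded 9.05 CPM for Ccl3 or 29.5 CPM for Ccl4, and few cells held their UMIs.

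Transcripts of receptors of these chemokines were also counted. Ccr4, the receptor of CCL17 and CCL22, had 0 UMIs in both libraries. Cxcr6, the receptor of CXCL16, had 229 UMIs in L-cDC, 95.6% of them in NK-like cells, and 11 in M-cDC. Cxcr3, the receptor of CXCL9 and CXCL10, was at 51.1 CPM in L-cDC against 51.3 CPM in M-cDC in cDC1-like cells, and at 93.6 CPM in the NK-like cells of L-cDC. Ccr1, a receptor that CCL6 and CCL9 bind but not only they, had 57.8% of its L-cDC and 31.7% of its M-cDC UMIs in pDC-like cells. It was at 23.8 CPM in L-cDC against 39.3 CPM in M-cDC there.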

How the data were processed

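For each library the authors deposited a matrix of raw UMI counts, genes by cell barcodes. Per the file headers, Cell Ranger 6.1.2 wrote them. The genome was GRCm38 (mm10), per the submitters' processing notes. The 3′ kit and the MGI sequencing are per the labels' protocols. The L-cDC library held 4939 barcodes and 40170515 UMIs and the M-cDC library 6674 and 52973960, with 6 barcodes in both.

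Barcodes with at least 500 genes and at most 10% mitochondrial UMIs were kept (4086 and 5848). Scrublet's automatic thresholds differed, marking 3 L-cDC cells and 248 M-cDC cells. The lower threshold was applied to both, after the thresholds were seen, and removed 143 and 248. Both libraries were clustered jointly, with no integration, on logs of counts scaled to 10000 UMIs (2000 variable genes, 30 principal components, 15 neighbours, Leiden resolution 1.0, seed 1). The variable genes excluded chemokines, sex-linked genes, ribosomal protein genes, hemoglobins, mitochondrial genes and the antigen receptor genes of B and T cells. A cluster was named by its best-scoring marker list where the scaled score was at least 0.3, at least 3 markers reached 10 CPM and no other list had more markers among the cluster's top 10 genes. A cluster of low depth also needed a marker there. This rule was set after a first naming had been seen.

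UMIs were summed per class and library. Levels are CPM with exact Poisson 95% intervals, shares have exact Clopper-Pearson 95% intervals, and ratios of L-cDC over M-cDC have exact conditional binomial 95% intervals. A library at 0 was set to a floor of 3 counts. Molecules in 1 cell are not independent, so intervals are too narrow where few cells hold the UMIs. Thinning to 3000 UMIs left out 321 L-cDC and 282 M-cDC cells. Genes were named as the 10 chemokines, receptors with enough UMIs (1 of them is not reported here), other chemokines with at least 50 UMIs, 3 genes of highest likeness per chemokine (not all are printed) and leading genes of clusters; the genes given for the richest cells were chosen after their values were seen. The chemokines, lists and comparisons were chosen with earlier results of these data known. Gene positions came from GENCODE M21 (10 of 10 identifiers found) and promoters from RefSeq. The ratio calculation was tested on simulated data. The tools were scanpy 1.11.5 with igraph 0.11.9 and scikit-learn 1.9.0, under Python 3.11.15 with scipy 1.17.1, numpy 2.4.6 and pandas 2.3.3; matplotlib 3.10.9 drew the figures.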

Additional observations from a re-analysis of the deposited data

Results flagged for a closer look

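Ccl9 moved in opposite directions between the libraries in neighbouring myeloid clusters. The log2 ratio (L-cDC over M-cDC) stood at 0.68 in cluster 16 and -1.98 in cDC2-like cells. The difference between these ratios was not tested, since each library is a single sample. With both sets of cells joined the log2 ratio was 1.24, a value that also depends on the mix of the sets in each library.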

How the results depend on the processing

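No paired analysis was possible because each group has 1 library, and no library could be left out. Alternatives changed the cell filters, doublet removal, clustering, class names, depth, scaling and the richest cells. Joining cluster 16 to the cDC2-like cells, leaving out mature clusters without 50 cells in both libraries and a stricter naming rule were added after seeing the data. Of 307 log2 ratios of chemokines under alternatives, 208 stayed within the counting interval of the value reported, 91 moved beyond it and 8 were called values that turned in sign. The sign held, wherever a value could be had, for Ccl17, Ccl22 and Cxcl16 in mature cells, Ccl5 in cDC2-like cells, Ccl5, Ccl9 and Cxcl16 in pDC-like cells, Cxcl9 and Cxcl10 in cluster 16 and Cxcl16 in cDC1-like cells. Ratios past 1.5-fold that turned were Ccl6 and Ccl9 in cDC2-like cells, at 0.48 and 1.34 (at most 5% mitochondrial UMIs), 0.38 and 1.14 (Leiden resolution 0.5) and 0.43 and 1.24 (joined with cluster 16), and Ccl9 and Cxcl16 in cluster 16, at -1.41 and -0.77 (each library clustered alone). Ratios not past 1.5-fold also changed sign, each under 1 to 5 alternatives: Ccl17 (-1.15 to 2.40), Ccl5 (-0.53 to 0.65) and Ccl6 (-1.81 to 0.54) in cluster 16, Ccl5 (-0.11 to 0.23) in mature cells, Cxcl16 (-0.58 to 1.32) in cDC2-like cells, and Cxcl9 (-0.07 to 0.33) and Ccl5 (-0.05 to 1.02) in cDC1-like cells. With each library clustered alone no cDC2-like or pDC-like ratio could be had. The number of chemokines past 1.5-fold in cDC1-like cells was 0 as reported. It was 1 with at least 200 or at least 1000 genes per barcode, at most 5% mitochondrial UMIs, chemokine genes used in clustering, Leiden resolution 0.5, each library alone or unnamed clusters counted under their highest list, and 2 with a CPM computed after leaving out immunoglobulin, ribosomal protein and mitochondrial genes. In cDC2-like cells it was 2 as reported and 4 with at least 1000 genes, at most 5% mitochondrial UMIs, resolution 0.5 or cluster 16 joined. In mature cells it was 1 as reported, 0 without the clusters lacking 50 cells in both libraries (cluster 2 alone), 2 with each library alone or with the CPM just described, and 3 when a name needed a marker among the top 10 genes. Genes past 1.5-fold numbered 46 in cDC1-like cells, against 188 after thinning, 80 with that CPM and 9 at a minimum of 50 CPM. In cDC2-like cells they numbered 309, against 79 at 50 CPM. In mature cells they numbered 67, against 37 at 50 CPM, 25 without cluster 2 and 616 under the stricter naming. The causes were not tested, except that a minimum of 50 CPM leaves fewer genes. Values for Ccl3, Ccl4 and Cxcl10 are limited by the few cells that hold their UMIs.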

Other observations

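Of 27 other chemokine genes 26 were measured, 9 had at least 50 UMIs over both libraries and 7 had none. Xcl1, whose receptor XCR1 marks cDC1, had 5804 UMIs, all of them in L-cDC and 96.1% of them in the NK-like cells, at 2732 CPM; the richest cell held 5.24%. Ccl1, a ligand of CCR8, had 66 UMIs in L-cDC, 81.8% in NK-like cells and 53.0% in 1 cell, and 2 UMIs in M-cDC. Cluster 2, present in L-cDC alone, held 71.8% of 188 Cxcl13 UMIs in L-cDC, of which 1 cell had 43.1%, while M-cDC had 20 UMIs. It also held all 62 Ccl24 UMIs of L-cDC, 51.6% of them in 1 cell, against 2 UMIs in M-cDC. Cx3cl1, which lies between Ccl22 and Ccl17, had 215 UMIs in L-cDC and 194 in M-cDC, and its main cluster was cluster 2 in L-cDC (14.9 CPM) and cluster 4 in M-cDC (25.6 CPM). Cxcl1 and Cxcl2, which attract neutrophils, had 137 and 151 UMIs in L-cDC and 120 and 128 in M-cDC, the largest part of each in cluster 2 in L-cDC and in cluster 4 in M-cDC. In L-cDC the richest cell held 32.8% of the Cxcl1 and 15.9% of the Cxcl2 UMIs. Ccl25 and Ccl27a had 392 and 132 UMIs in L-cDC and 526 and 147 in M-cDC, with no more than 1.52% in any 1 cell.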
